A study of Homo sapiens with 18 samples.

Results

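The genes for the growth factors pleiotrophin (PTN) and midkine (MDK), for their receptors PTPRZ1, ALK and LTK, and for the 4 syndecans SDC1, SDC2, SDC3 and SDC4 were followed across 6 genotype groups of HAP1 cells. These 9 of the 20329 genes in the count tables were chosen by name, with their levels over the 6 groups already known. Their levels and differences between groups are therefore given as a description, without a test. Tests are reported for other genes of the pathway and for neighbouring genes. The pathway list was also chosen with earlier results of these data known.

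The study asked what the cohesin release factor WAPL and the cohesin loader subunit SCC4 do in chromosome organisation, and the RNA samples compare gene expression after loss of either or both. HAP1 is a near-haploid human cell line, derived from a chronic myeloid leukaemia line, whose parental cells carry mutant p53. The groups had 3 samples each: control A (wild-type), *ΔWAPL* clone 3.3, *ΔSCC4*, *ΔWAPL*/*ΔSCC4*, control B (wild-type) and *ΔWAPL* clone 1.14. *ΔWAPL* cells had a blasticidin cassette inserted by CRISPR, *ΔSCC4* cells a puromycin cassette, and in *ΔWAPL*/*ΔSCC4* cells SCC4 was removed from *ΔWAPL* clone 3.3. The 2 *ΔWAPL* clones are named by the labels. *ΔSCC4* and *ΔWAPL*/*ΔSCC4* were treated as 1 clone each, so that genotype and clone cannot be told apart there. The comparisons of clone 3.3, *ΔSCC4* and *ΔWAPL*/*ΔSCC4* with control A share the same 3 control samples. The labels do not say that replicates were separate cultures, so the p-values measure the spread between these samples, which may be technical.

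Reads on genes ranged from 10007646 to 20711127 per sample. WAPL mRNA fell from 99.2 ± 21.5 CPM (counts scaled to library size, SD, n = 3) in control A to 43.7 ± 5.65 in clone 3.3 and 45.5 ± 3.94 in *ΔWAPL*/*ΔSCC4*, and from 121 ± 14.6 in control B to 41.3 ± 2.89 in clone 1.14. MAU2, the gene for SCC4, was at 65.6 ± 6.25 CPM in control A, 0.702 ± 0.243 in *ΔSCC4* and 0.934 ± 0.1 in *ΔWAPL*/*ΔSCC4*. Of 18 marker genes of haematopoietic, endothelial, fibroblast and glial cells, 15 stayed under 1 CPM in all samples, among them all 5 haematopoietic markers, although HAP1 descends from a leukaemia line. The summed fibroblast markers, nearly all COL1A1 with LUM at 0, stood at 12.6 to 13.9 CPM in control A, 16 to 21.3 in clone 3.3, 11.3 to 12.3 in *ΔSCC4*, 28 to 32.2 in *ΔWAPL*/*ΔSCC4*, 21.2 to 22.1 in control B and 19.6 to 21.3 in clone 1.14. The summed glial markers, nearly all MBP with SOX10 at 0, ranged from 12.2 to 24.2 CPM and were highest in *ΔWAPL*/*ΔSCC4*. Their part in the results was not tested. In bulk RNA, fewer cells with a transcript and less of it per cell cannot be told apart.

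Pleiotrophin and midkine are secreted, heparin-binding growth factors that form a small family, and both are best known from embryonic tissue, the developing nervous system and tumours. They bind the receptor-type phosphatase PTPRZ1, an abundant chondroitin sulfate proteoglycan of glial and neural precursor cells, and the heparan sulfate chains of syndecans. ALK and its relative LTK are receptor tyrosine kinases. Pleiotrophin and midkine were described as ligands of ALK, while the small proteins ALKAL1 and ALKAL2 bind ALK and LTK directly.

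PTN was the member whose level differed most between groups. The 209 bases just before its annotated transcripts, at chr7:137028521-137028729 of GRCh37 on the minus strand, are shown because this is the start region of the gene whose RNA appeared in *ΔWAPL* cells, with CG pairs in capitals:
PTN: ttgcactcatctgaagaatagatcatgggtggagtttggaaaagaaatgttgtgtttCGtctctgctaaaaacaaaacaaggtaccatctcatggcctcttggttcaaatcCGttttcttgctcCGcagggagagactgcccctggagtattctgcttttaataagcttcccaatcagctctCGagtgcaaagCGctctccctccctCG
This stretch holds 6 CG pairs. It was read from the RefSeq promoter table (GRCh38.p14) and found at a single place on chromosome 7 of GRCh37. In the table's full window of 250 bases before the start, PTN had 8 CG pairs and a GC content of 50.4%, against medians of 11 CG pairs and 58% over 35116 promoters. Of all promoters, 43.7% had fewer CG pairs than PTN. Neither a GC box (GGGCGG, on either strand), nor TATAAA, nor CACGTG was found in the PTN window. They were found in 42.6%, 10.7% and 6.34% of all promoters. The windows of SDC3, SDC4 and PTPRZ1 had 37, 26 and 29 CG pairs and 5, 8 and 2 GC boxes, and that of LTK had 14 CG pairs and no GC box. Those of SDC1 had 23 and 21 CG pairs, and those of ALK 24 and 2. A match or its absence describes these letters only.

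PTN (ENSG00000105894, chr7:136912088-137028520, minus strand) encodes pleiotrophin. Control A held 2, 0 and 0 PTN reads, or 0.13, 0 and 0 CPM, and control B held 2, 1 and 1 reads, or 0.137, 0.0672 and 0.0563 CPM. The RNA was thus at the edge of detection in all 6 controls, where 3 reads over a group of 3 samples correspond to 0.062 CPM in control A and 0.0634 CPM in control B. *ΔWAPL* clone 3.3 had 219, 134 and 140 reads, or 10.9, 9.48 and 9.3 CPM. Clone 1.14 had 14, 17 and 16 reads, or 0.742, 1.01 and 0.965 CPM. Every sample of either clone lay above every control. *ΔWAPL*/*ΔSCC4* had 48, 44 and 46 reads, or 2.73, 2.7 and 2.6 CPM, while *ΔSCC4* alone had 2, 0 and 5 reads, or 0.13, 0 and 0.345 CPM, and overlapped the controls.

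**Figure D1:**
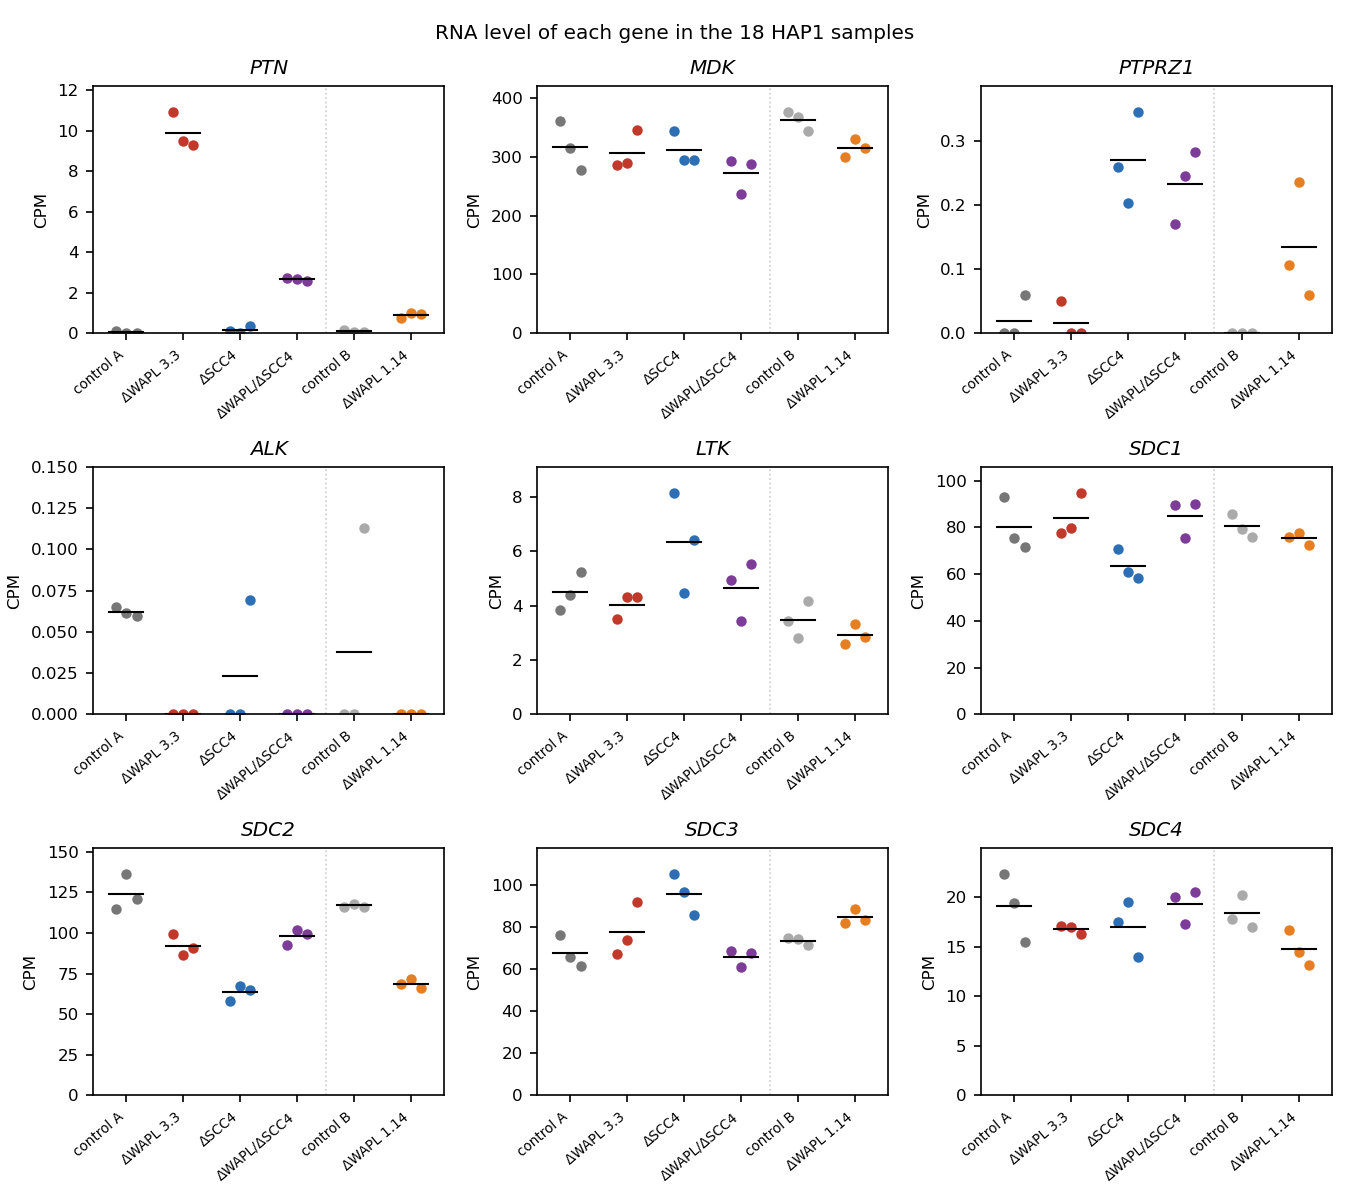
CPM (vertical axes, from 0) of the 9 genes in each of the 18 samples (points) by genotype group, with the group mean as a black line and the samples with control B right of the dotted line. PTN stands at 9.3 to 10.9 CPM in clone 3.3 and at 2.6 to 2.73 CPM in the double knockout, SDC2 is highest in both control groups, and MDK lies between 236 and 375 CPM in all samples.

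In order of mean level, PTN was at 9.9 ± 0.883 CPM (SD, n = 3) in clone 3.3, 2.68 ± 0.0683 in *ΔWAPL*/*ΔSCC4* and 0.905 ± 0.143 in clone 1.14, with no overlap between neighbours in this order or with *ΔSCC4* at 0.158 ± 0.174. The ranges of *ΔSCC4*, control B and control A overlapped. Because the controls held so few reads, ratios of summed reads, scaled to library size, are given with exact 95% intervals that cover counting error only. Clone 3.3 stood 242-fold above control A (interval 66.6 to 2004), and clone 1.14 stood 10.6-fold above control B (3.88 to 40.6). The double knockout was at 64.7-fold of control A (17.6 to 540), at 15.2-fold of *ΔSCC4* (7.17 to 38.5) and at a ratio of 0.268 to its parental clone 3.3 (0.22 to 0.324). *ΔSCC4* was at 4.27-fold of control A, with a wide interval of 0.812 to 42.1, from 7 against 2 reads. Both control A reads came from replicate 1, and without it the fitted log2 fold change was 10.35 in place of 7.64 in clone 3.3 and 8.51 in place of 5.78 in the double knockout, so that these sizes rest on a handful of control reads. Without *ΔSCC4* replicate 3, which held 5 of its 7 reads, the fitted log2 difference between the double knockout and *ΔSCC4* was 4.94 in place of 3.86. Without control B replicate 1 that of clone 1.14 was 3.73 in place of 3.30. Between the clones, which were measured with different controls, the ratio of clone 3.3 to clone 1.14 was 11.1 (8.25 to 15.4).

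MDK (ENSG00000110492, chr11:46402306-46405387, plus strand) encodes midkine and was the most abundant member. It was at 360, 314 and 277 CPM in control A, 285, 289 and 346 in clone 3.3, 344, 294 and 294 in *ΔSCC4*, 293, 236 and 288 in *ΔWAPL*/*ΔSCC4*, 375, 368 and 343 in control B and 299, 330 and 315 in clone 1.14. All neighbouring groups in the order of means overlapped, from 362 ± 16.7 in control B to 272 ± 31.3 in the double knockout. The log2 fold change was -0.07 (SE 0.15) in clone 3.3 against control A and -0.21 (SE 0.06) in clone 1.14 against control B, where every clone 1.14 sample lay below every control. MDK overlaps CHRM4, a muscarinic receptor gene on the opposite strand, at its 3′ end. CHRM4 drew 441 reads over all samples, and the libraries were strand-specific.

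Per kilobase of exon, MDK stood at 125 to 166 CPM over the groups. PTN reached 6.1 CPM per kilobase in clone 3.3, 1.65 in the double knockout and 0.558 in clone 1.14. As a share of the summed PTN and MDK level per kilobase, PTN made up 4.2 ± 0.706% in clone 3.3, 1.32 ± 0.172% in *ΔWAPL*/*ΔSCC4* and 0.384 ± 0.0444% in clone 1.14 (SD, n = 3). Midkine mRNA therefore outnumbered pleiotrophin mRNA on this scale in every group.

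Of the receptors, PTPRZ1 (ENSG00000106278, chr7:121513143-121702090, plus strand), the receptor-type phosphatase, was close to absent. It had 0, 0 and 1 reads in control A, 0, 0 and 0 in control B, and 1, 0 and 0 in clone 3.3. Clone 1.14 had 2, 4 and 1 reads, *ΔSCC4* had 4, 2 and 5, and *ΔWAPL*/*ΔSCC4* had 3, 4 and 5. All samples of the last 3 groups held at least 1 read, yet the means stayed at 0.135 ± 0.0919, 0.27 ± 0.0715 and 0.233 ± 0.0571 CPM. In summed reads, *ΔSCC4* was at 13.4-fold of control A (exact 95% interval 1.95 to 577) and the double knockout at 11.3-fold (1.67 to 481). Both ratios rest on 1 control A read. Clone 1.14 held 7 reads against none in control B, a ratio of 2.11 with control B set to 3 reads over the group. The lower limit of its exact 95% interval was 1.3. These intervals cover counting error only and are part of the description, without a test.

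ALK (ENSG00000171094, chr2:29415640-30144452, minus strand), the receptor tyrosine kinase, had 1 read in each control A sample, 0, 0 and 1 in *ΔSCC4* and 0, 0 and 2 in control B. No ALK read was counted in clone 3.3, clone 1.14 or the double knockout. These numbers lie at or under 3 reads per group, and no ratio is given. ALK overlaps CLIP4 on the opposite strand. PTPRZ1 and ALK were the 2 members that did not pass the filter on low counts over the 18 samples, and 7 of 9 did.

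LTK (ENSG00000062524, chr15:41795835-41806085, minus strand), the relative of ALK, was the receptor tyrosine kinase with measurable RNA. It was at 3.84, 4.38 and 5.24 CPM in control A, 3.49, 4.31 and 4.32 in clone 3.3, 8.13, 4.48 and 6.43 in *ΔSCC4*, 4.95, 3.44 and 5.54 in *ΔWAPL*/*ΔSCC4*, 3.42, 2.82 and 4.16 in control B and 2.6, 3.32 and 2.84 in clone 1.14. All neighbours in the order of means overlapped, from 6.34 ± 1.83 in *ΔSCC4* to 2.92 ± 0.37 in clone 1.14, and the *ΔSCC4* samples had the widest spread. The log2 fold change of *ΔSCC4* against control A was 0.51 (SE 0.23), and that of the double knockout against *ΔSCC4* was -0.47 (SE 0.22).

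**Figure D2:**
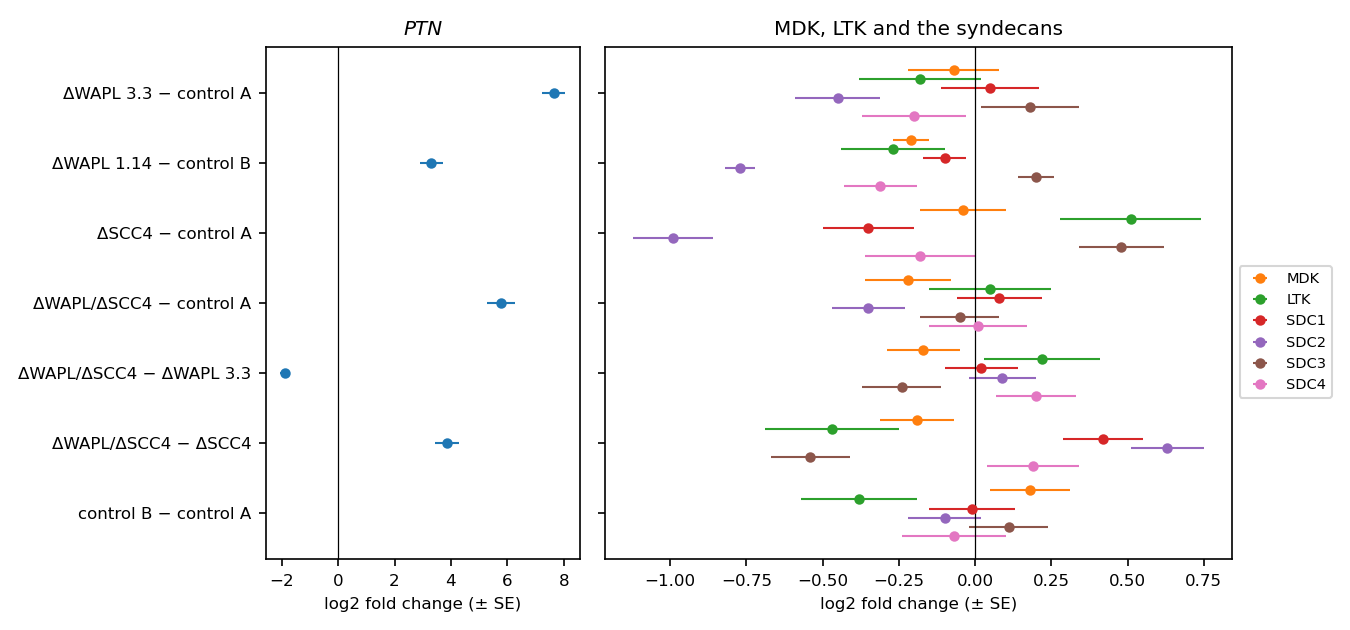
Log2 fold change (horizontal axes, ± SE, edgeR) of PTN (left) and of MDK, LTK and the 4 syndecans (right) in the 7 comparisons listed on the vertical axis, with a wider scale for PTN. PTN reaches 7.64 in clone 3.3 and is not plotted for *ΔSCC4* or for control B against control A, where it did not pass the filter, and SDC2 is at -0.45, -0.77, -0.99 and -0.35 in the 4 comparisons of a knockout with controls.

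Syndecans are cell-surface proteoglycans whose heparan sulfate chains bind many growth factors, midkine and pleiotrophin among them. SDC2 (ENSG00000169439, chr8:97506041-97624018, plus strand), a syndecan of mesenchymal and neural cells, was lower in every knockout group than in either control group. It was at 115, 136 and 121 CPM in control A and 116, 118 and 116 in control B. Clone 3.3 had 99.5, 86.1 and 90.6 CPM, clone 1.14 had 68.5, 71.5 and 66.2, *ΔSCC4* had 57.9, 67.2 and 64.7, and *ΔWAPL*/*ΔSCC4* had 92.3, 102 and 99.1. The groups thus fell into 3 levels that did not overlap: both controls (124 ± 10.6 and 117 ± 1.07), the double knockout with clone 3.3 (97.8 ± 5.07 and 92.1 ± 6.83), and clone 1.14 with *ΔSCC4* (68.7 ± 2.61 and 63.3 ± 4.79). The log2 fold change was -0.45 (SE 0.14) in clone 3.3, -0.77 (SE 0.05) in clone 1.14, -0.99 (SE 0.13) in *ΔSCC4* and -0.35 (SE 0.12) in the double knockout. Against *ΔSCC4*, the double knockout was 0.63 (SE 0.12) higher on the log2 scale. SDC2 of the double knockout differed from that of clone 3.3 by 0.09 (SE 0.11).

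SDC3 (ENSG00000162512, chr1:31342313-31381605, minus strand), the syndecan of the nervous system, was highest in *ΔSCC4*, with 105, 96.5 and 85.5 CPM. It was at 76, 65.9 and 61.4 CPM in control A, 67.4, 74 and 91.9 in clone 3.3, 68.7, 60.9 and 67.6 in *ΔWAPL*/*ΔSCC4*, 74.9, 74.5 and 71.3 in control B and 81.8, 88.8 and 83.4 in clone 1.14. Neighbouring groups in the order of means overlapped, but all *ΔSCC4* samples lay above all control A samples, and all clone 1.14 samples above all control B samples. The log2 fold changes were 0.48 (SE 0.14) and 0.20 (SE 0.06). The double knockout was lower than *ΔSCC4* by a log2 difference of -0.54 (SE 0.13).

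SDC1 (ENSG00000115884, chr2:20400558-20425194, minus strand), the epithelial and plasma cell syndecan, was lowest in *ΔSCC4*, at 70.6, 61.1 and 58.4 CPM. Control A had 93, 75.4 and 71.5 CPM and the double knockout 89.5, 75.6 and 89.8. The group means of the other groups lay between 75.4 ± 2.73 in clone 1.14 and 85 ± 8.12 in the double knockout, and the *ΔSCC4* samples were all below those of clone 1.14. SDC4 (ENSG00000124145, chr20:43953928-43977064, minus strand), a widely expressed syndecan of focal adhesions, had means between 14.8 ± 1.81 CPM in clone 1.14 and 19.3 ± 1.71 in the double knockout, and all neighbours overlapped.

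Per kilobase of exon, SDC2 and SDC1 made up most of the syndecan RNA. In control A the levels were 30.4 CPM per kilobase for SDC2, 22.1 for SDC1, 9.59 for SDC3 and 7.3 for SDC4. The share of SDC2 in the sum was 44 ± 4.68% in control A and 41.9 ± 1.13% in control B, and it was 35.7 ± 3.32% in clone 3.3, 37.4 ± 3.1% in the double knockout, 30.4 ± 0.295% in clone 1.14 and 29.3 ± 3.27% in *ΔSCC4*. The share of SDC3 was 13.8 ± 0.788% in control A and 25.5 ± 1.22% in *ΔSCC4*, and 15.3 ± 0.0193% in control B and 21.7 ± 0.804% in clone 1.14. The summed syndecan level went from 69.5 ± 4.74 CPM per kilobase in control A to 53.1 ± 3.15 in *ΔSCC4*, and from 68.3 ± 1.9 in control B to 55.4 ± 2.06 in clone 1.14.

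**Figure D3:**
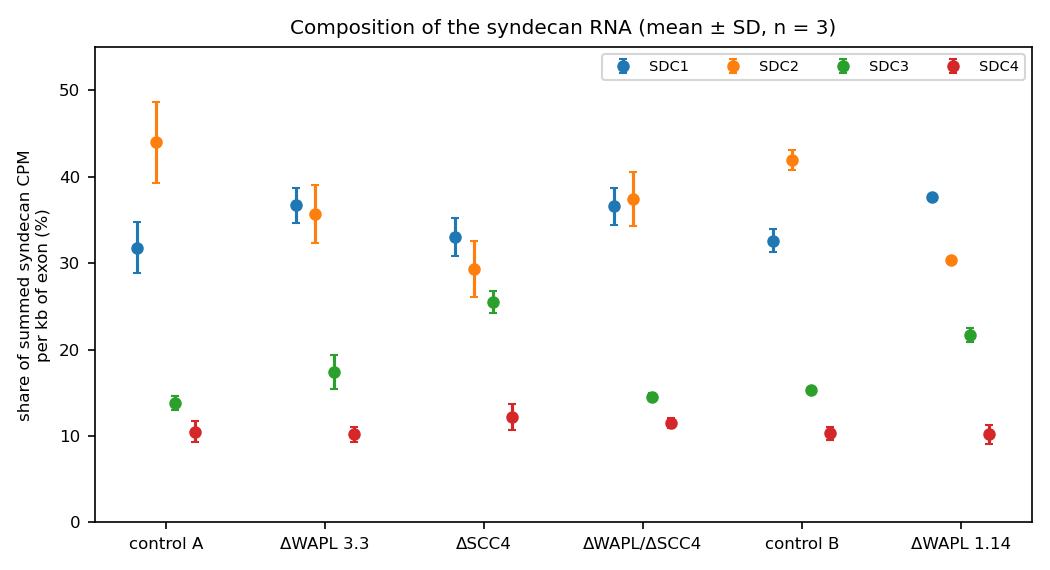
Share of each syndecan in the summed syndecan CPM per kilobase of exon (vertical axis, %, mean ± SD, n = 3 samples) in the 6 groups. SDC2 holds the largest share in both controls, at 44 and 41.9%, and in *ΔSCC4* its share of 29.3% lies close to the 25.5% of SDC3.

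Samples of the groups compared did not overlap for 2 of 7 members in clone 3.3 (23.3% of all genes), 5 of 7 in clone 1.14 (42.5%), 3 of 6 in *ΔSCC4* (26.7%), 2 of 7 in the double knockout against control A (22.6%), 2 of 7 against clone 3.3 (27.8%) and 5 of 7 against *ΔSCC4* (41.3%). Since the members were chosen with these contrasts in view, nothing is read from these counts. Between control B and control A, the ranges of all 6 tested members overlapped (19.4% of all genes did not overlap).

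Beyond the members, 96 genes of the pathway were taken from a list of other receptors and ligands, intracellular partners, enzymes that release or cut proteoglycans, glypicans, and enzymes that build heparan and chondroitin sulfate. Because this list was chosen with earlier results of these data known, nothing is read from a count above the share of all genes. In clone 3.3 against control A, 15 of 77 tested genes passed the threshold (edgeR's quasi-likelihood test, adjusted p under 0.05), 7 higher and 8 lower, beside 8.07% of all genes. In clone 1.14 against control B, 32 of 79 passed, 17 higher and 15 lower, beside 20.1% of all genes, but 18 to 20 when control B replicate 1 or any clone 1.14 replicate was left out. In *ΔSCC4* against control A, 14 of 75 passed, 7 in each direction, beside 9.49% of all genes. In *ΔWAPL*/*ΔSCC4*, 12 of 75 passed, 7 higher and 5 lower, beside 7.95% of all genes, or 6 without *ΔWAPL*/*ΔSCC4* replicate 1. The *ΔSCC4* count was 6, 8 and 7 without control A replicate 2, *ΔSCC4* replicate 1 and *ΔSCC4* replicate 2. The replicate number was also used as a block, which treats the *ΔSCC4* and control A samples as pairs, although the labels give no pairing. With it, 42 of 75 passed, 28 higher and 14 lower, beside 5754 of 12503 genes in all. All 14 genes called without the block were among them. The double knockout had 18 of 76 genes past the threshold against clone 3.3, 9 in each direction, beside 10.6% of all genes, and 29 of 76 against *ΔSCC4*, 12 higher and 17 lower, beside 27.3%. Leaving out 1 library moved several of these shares of all genes by over 1.5 times, in clone 1.14 from 2536 genes to 1415 without clone 1.14 replicate 1 and 4820 without control B replicate 3, and in *ΔSCC4* from 1186 to 662 without control A replicate 2 and 2317 without control A replicate 1. The median log2 fold change of the list was -0.01 in clone 3.3, 0.07 in clone 1.14, 0.09 in *ΔSCC4* and 0.02 in the double knockout against control A, beside medians of all tested genes of 0.00.

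**Figure D4:**
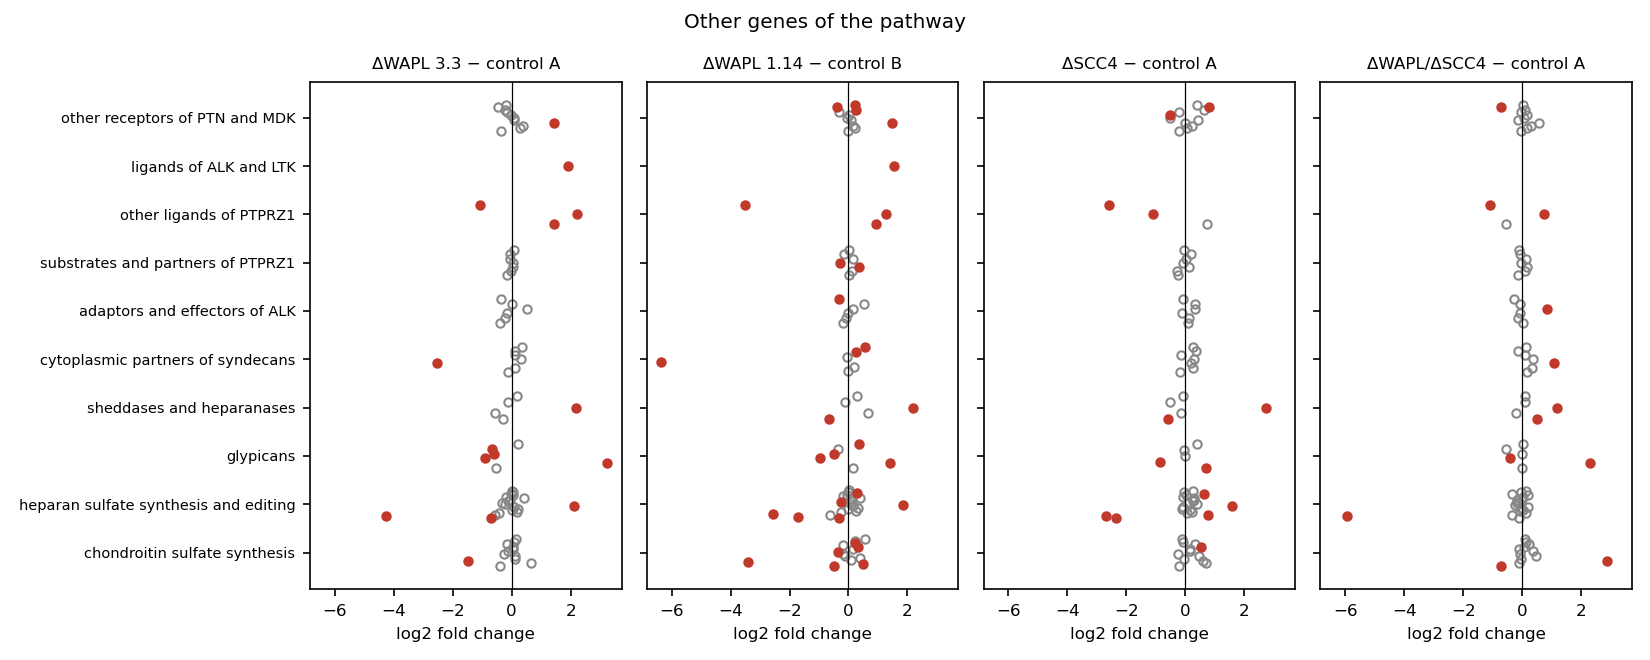
Log2 fold change (horizontal axes) of the tested pathway genes by role (vertical axis) in the 4 comparisons with controls, filled where the edgeR adjusted p was under 0.05 and open otherwise. Filled points lie on both sides of 0, with CNTN1, at -1.07 to -3.50, the lowest of the other ligands of PTPRZ1 in each comparison.

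Of the list, 5 genes passed the threshold in all 4 comparisons with controls. The share of all genes that did so was not computed. The comparisons of clone 3.3, *ΔSCC4* and the double knockout share the control A samples, so nothing is read from this count. MMP2, a secreted protease that can release syndecan ectodomains, rose in all 4, by log2 fold changes of 2.20 in clone 3.3, 2.20 in clone 1.14, 2.73 in *ΔSCC4* and 1.19 in the double knockout (edgeR adjusted p = 5.36e-05, 4.6e-05, 0.000142 and 0.0284). CNTN1, a neural adhesion molecule that binds PTPRZ1, was lower in all 4, with 17.5 ± 3.06 CPM in control A, 8.44 ± 0.934 in clone 3.3, 2.9 ± 0.514 in *ΔSCC4* and 8.18 ± 0.384 in the double knockout, and with 16 ± 3.51 in control B and 1.43 ± 0.361 in clone 1.14. Its log2 fold changes were -1.07, -3.50, -2.59 and -1.10 (clone 3.3, clone 1.14, *ΔSCC4*, double knockout; edgeR adjusted p = 0.0007, 8.03e-05, 2.48e-05 and 0.00106). GPC4, a glypican and so a second kind of heparan sulfate carrier at the cell surface, fell from 425 ± 18.7 CPM in control A to 229 ± 30.1 in clone 3.3, 237 ± 19.4 in *ΔSCC4* and 321 ± 17.4 in the double knockout, and from 443 ± 13.8 in control B to 226 ± 5.41 in clone 1.14 (edgeR adjusted p = 0.000372, 0.000955, 0.0372 and 3.01e-05). SULF1, which removes sulfate groups from heparan sulfate, fell from 2.8 ± 0.582 CPM in control A to 0.148 ± 0.0578, 0.428 ± 0.115 and 0.0379 ± 0.0657, and from 2.07 ± 0.458 in control B to 0.636 ± 0.132 (edgeR adjusted p = 2.45e-06, 0.000328, 4.92e-05 and 0.00374). It lay under the level set for naming genes and was named after its values were seen. The fifth gene, NRCAM, changed in both directions, and its call in the double knockout was lost with DESeq2 (adjusted p = 0.0622).

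Among the other receptors of pleiotrophin and midkine, ITGA4, an integrin chain of a midkine receptor complex, rose from 44.3 ± 8.69 to 122 ± 12.2 CPM in clone 3.3 and from 44.1 ± 11.8 to 125 ± 7.96 in clone 1.14, with log2 fold changes of 1.44 (SE 0.16) and 1.49 (SE 0.18) and edgeR adjusted p of 2.66e-05 and 0.00124. It was 0.88 lower on the log2 scale in the double knockout than in clone 3.3 (66 ± 9.88 CPM, edgeR adjusted p = 0.00024). NRP1, neuropilin, rose from 49.6 ± 9.41 to 86.5 ± 18.5 CPM in *ΔSCC4* (edgeR adjusted p = 0.0248) and fell to 30.3 ± 2.62 in the double knockout (edgeR adjusted p = 0.0153). In clone 1.14 it was lower, at 41.8 ± 1.34 CPM against 54.5 ± 3.83 in control B (log2 fold change -0.39, SE 0.07, edgeR adjusted p = 0.00739), and it was 36.7 ± 3.96 in clone 3.3 (edgeR adjusted p = 0.12).

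The adhesion molecules NRCAM and NFASC, which also bind PTPRZ1, were both higher in *ΔWAPL* cells. NRCAM was at 3.25 ± 0.412 CPM in control A and 15.3 ± 2.41 in clone 3.3, a log2 fold change of 2.22 (SE 0.19, edgeR adjusted p = 1.84e-06), and at 3.81 ± 0.829 in control B and 9.39 ± 0.841 in clone 1.14, a log2 fold change of 1.29 (SE 0.16, edgeR adjusted p = 0.00139). It fell to 1.58 ± 0.465 in *ΔSCC4* (edgeR adjusted p = 0.0198) and was at 5.45 ± 0.552 in the double knockout, above control A (edgeR adjusted p = 0.0222) and below clone 3.3 (edgeR adjusted p = 6.48e-06). NFASC was at 5.84 ± 0.596 CPM in clone 3.3 against 2.14 ± 0.409 in control A (edgeR adjusted p = 0.000293). In clone 1.14 it was at 5.47 ± 1.03 against 2.86 ± 0.235 in control B (edgeR adjusted p = 0.0087). In *ΔSCC4* it was at 3.61 ± 0.578, a log2 fold change of 0.74 (edgeR adjusted p = 0.0678, or 0.00578 with the replicate block). The double knockout, at 1.46 ± 0.0909, was lower than clone 3.3 (edgeR adjusted p = 1.47e-06). The remaining ligands of PTPRZ1 on the list, TNC and TNR, passed no filter.

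The ALK and LTK ligands were scarce, and both were named after their values were seen. ALKAL1 had 4, 3 and 3 reads in control A and 15, 15 and 10 in clone 3.3, a log2 fold change of 1.92 (SE 0.43, edgeR adjusted p = 0.0101), and 3, 4 and 2 reads in the double knockout. With DESeq2 the adjusted p in clone 3.3 was 0.0746. ALKAL2 had 5, 6 and 6 reads in control B and 13, 18 and 25 in clone 1.14, a log2 fold change of 1.55 (SE 0.39, edgeR adjusted p = 0.0298), with an adjusted p of 0.0566 by DESeq2. Clone 3.3 held 2, 0 and 2 ALKAL2 reads against 2, 4 and 3 in control A, and so was not higher. *ΔSCC4* held 9, 6 and 12 and the double knockout 14, 14 and 10. ALKAL2 did not pass the filter in the comparisons with control A. Neither ligand passed edgeR's test of a difference between the clones, which called 2.65% of all genes.

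Intracellular partners were called in some comparisons, and those named here other than TIAM1 were chosen after their values were seen. Of 7 substrates and partners of PTPRZ1, 0 passed the threshold in clone 3.3, *ΔSCC4* and the double knockout against control A, in edgeR and in DESeq2, and 0 had an unadjusted edgeR p under 0.05. With the replicate block in *ΔSCC4*, ADD2 and GIT1 passed (edgeR adjusted p = 0.00268 and 0.0111), with log2 fold changes of -0.26 and 0.19. So did FRS2 of the ALK adaptors and SDCBP, GIPC1, PRKCA and PDCD6IP of the syndecan partners. Their log2 fold changes were 0.34, 0.25, 0.30, 0.24 and -0.19 (edgeR adjusted p = 0.00265, 0.00272, 0.0023, 0.0159 and 0.0103). The block called 5754 of 12503 genes in all. In clone 1.14, FYN, a kinase, was lower and MAGI1, a scaffold protein, higher, by log2 fold changes of -0.29 and 0.35 (edgeR adjusted p = 0.0197 and 0.0109). Of the 6 adaptors and effectors of ALK, SHC1 was lower in clone 1.14 (log2 fold change -0.32, edgeR adjusted p = 0.0165) and IRS1 rose from 5.94 ± 0.869 to 10.7 ± 0.438 CPM in the double knockout (edgeR adjusted p = 0.0049). Of the cytoplasmic partners of syndecans, 3 of 6 passed in clone 1.14, beside 20.1% of all genes. SDCBP and CASK, which bind syndecan tails, were higher by log2 fold changes of 0.55 and 0.27 (edgeR adjusted p = 0.00159 and 0.0263), and TIAM1 was lower. TIAM1, an exchange factor for the GTPase Rac, was the 1 partner of 7 past the threshold in clone 3.3, where it fell from 1.78 ± 0.152 to 0.291 ± 0.133 CPM (edgeR adjusted p = 0.000153). In clone 1.14 it had 2, 0 and 2 reads against 96, 85 and 146 in control B (edgeR adjusted p = 5.17e-05), and in the double knockout it rose to 3.77 ± 0.8 CPM (edgeR adjusted p = 0.0104). TIAM1 was also the 1 pathway gene that passed the threshold between the 2 control groups, with 6.83 ± 1.27 CPM in control B (edgeR adjusted p = 0.00378), where 0.64% of all genes did. That count was 0 without control A replicate 1 or replicate 2, and 2 without control A replicate 3.

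Enzymes that set the sulfation of the glycosaminoglycan chains moved in different directions. SULF2, the second heparan sulfate sulfatase, fell from 39.3 ± 3.9 to 7.74 ± 0.622 CPM in *ΔSCC4*, a log2 fold change of -2.35 (SE 0.16, edgeR adjusted p = 8.35e-06), and to 24.3 ± 0.739 in clone 3.3 (edgeR adjusted p = 0.00607), and was 36.5 ± 2.58 in the double knockout. CHST15, which makes the doubly sulfated chondroitin units that pleiotrophin and midkine bind well, rose from 2.19 ± 0.532 to 16.3 ± 1.95 CPM in the double knockout, a log2 fold change of 2.89 (SE 0.19, edgeR adjusted p = 5.93e-06). It was lower in both *ΔWAPL* clones, at 0.8 ± 0.17 CPM in clone 3.3 and, against 4.55 ± 0.817 in control B, at 0.428 ± 0.169 in clone 1.14 (edgeR adjusted p = 0.000203). HS3ST5, a heparan sulfate sulfotransferase, rose from 3.22 ± 0.847 to 5.57 ± 0.101 CPM in *ΔSCC4* (edgeR adjusted p = 0.0428, DESeq2 adjusted p = 0.0726). UST, which sulfates chondroitin and dermatan sulfate, fell from 46.1 ± 5.48 to 28.3 ± 2 CPM in the double knockout (edgeR adjusted p = 0.00621). It also fell from 44.5 ± 1.34 in control B to 31.5 ± 1.2 in clone 1.14 (edgeR adjusted p = 0.00157), and was 35.1 ± 4.37 in clone 3.3 (edgeR adjusted p = 0.134). HPSE, which cuts heparan sulfate chains, was at 42.2 ± 0.372 CPM in control A, 28.2 ± 0.392 in *ΔSCC4* and 59.8 ± 5.59 in the double knockout (edgeR adjusted p = 0.0126 and 0.0284 against control A). In clone 1.14 HPSE was lower, at 31.1 ± 1.99 CPM against 48.6 ± 2.05 in control B (edgeR adjusted p = 0.000955). Clone 3.3 had 34.6 ± 2.45 CPM (edgeR adjusted p = 0.27).

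The genes whose levels followed those of PTN most closely were KCTD8, BCO1, which encodes a carotene-cleaving enzyme, and CBLN1, which encodes a secreted synapse organiser, with Pearson correlations of log2 CPM over the 18 samples of 0.930, 0.922 and 0.908. They were the closest of 12976 genes searched, the 18 samples share their controls, clones and libraries, and no p is given. KCTD8 had group means of 1.15 CPM in control A, 5.47 in clone 3.3, 1.29 in *ΔSCC4*, 4.23 in the double knockout, 1.33 in control B and 4.07 in clone 1.14. For LTK the closest were MAP3K12, FMOD and DOK3, at 0.831, 0.807 and 0.805, and DOK3 was at 7.75 CPM in *ΔSCC4* and at 2.01 to 3.64 CPM in the other groups. No other member had a mean of at least 1 CPM that was 2-fold above its lowest group.

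Around PTN, 22 other genes have their start within 2 Mb of the PTN start. In clone 3.3, 0 of 14 tested passed the threshold (edgeR; 2 had an unadjusted p under 0.05 and DESeq2 called 0), with a median log2 fold change of -0.05. The double knockout against control A gave the same counts. The shares of all genes were 8.07% in clone 3.3 and 7.95% in the double knockout. In clone 1.14, 3 of 13 passed, MTPN, ZC3HAV1L and CREB3L2, all higher, beside 20.1% of all genes. In *ΔSCC4* against control A, 1 of 13 passed, TRIM24, which was lower (edgeR adjusted p = 0.0204), beside 9.49% of all genes. Against *ΔSCC4*, the double knockout had 4 of 13 past the threshold, 3 higher and 1 lower, beside 27.3%. The next genes along the chromosome that passed the filter were MTPN and DGKI, whose starts lie 1366 kb and 503 kb from that of PTN. They had log2 fold changes of 0.28 (SE 0.16) and -0.19 (SE 0.37) in clone 3.3, and MTPN had 0.17 (SE 0.05, edgeR adjusted p = 0.0473) in clone 1.14.

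**Figure D5:**
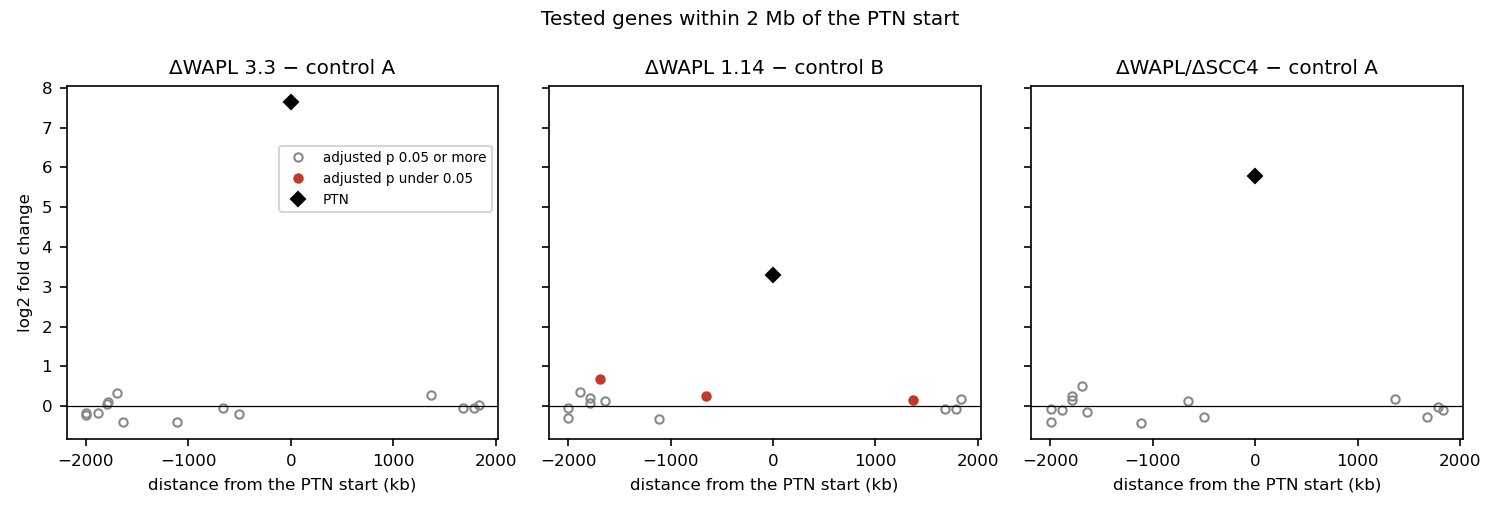
Log2 fold change (vertical axis) of the tested genes within 2 Mb of the PTN start against the distance of their start from it in kb (horizontal axis, positive in the direction of PTN transcription), with PTN as a diamond, in 3 comparisons. PTN stands at 7.64, 3.30 and 5.78, away from all its neighbours, and filled circles mark the 3 genes of clone 1.14 with an edgeR adjusted p under 0.05.

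Next to the other members, CHRM4, beside MDK, rose from 0.912 to 2.69 CPM in clone 3.3 (log2 fold change 1.52, SE 0.26, edgeR adjusted p = 0.00131) and had a log2 fold change of 0.02 (SE 0.19) in clone 1.14. PTPRU, a receptor-type phosphatase gene and the next that passed the filter on 1 side of SDC3, with its start 1819 kb from that of SDC3, fell in both clones, by 0.81 on the log2 scale in each (edgeR adjusted p = 0.00535 and 9.25e-05). CPQ, a carboxypeptidase gene that starts 151 kb from the start of SDC2, fell in clone 1.14 from 4.27 to 2.07 CPM (log2 fold change -1.06, SE 0.22, edgeR adjusted p = 0.0141) and had a log2 fold change of -0.49 (SE 0.20, edgeR adjusted p = 0.198) in clone 3.3. CLIP4, which overlaps ALK, rose from 10.2 to 18.5 CPM in clone 1.14 (edgeR adjusted p = 0.00766).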

How the data were processed

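Polyadenylated RNA of 18 HAP1 samples was sequenced from strand-specific libraries. The authors deposited raw read counts per gene, made with TopHat2 and HTSeq on hg19 (TopHat2 2.0.9 per the submitters' processing notes); the annotation is not given in the sources used here. Symbols, positions and exon lengths came from GRCh37 with GENCODE, in which 96.6% of identifiers were found, and between 20.3% and 22.6% of the reads per sample carried no gene and were left out. Reads on genes ranged from 10007646 to 20711127, and replicates differed by a chi-square per degree of freedom of 1.61 to 51.99, so each was counted once. The replicates of clone 1.14 differed least, by 1.61 to 4.24, against 5.08 or more within every other group. Counts of genes called in clone 1.14 and elsewhere therefore rest on unlike spreads between replicates.

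From the counts, CPM was computed with TMM normalization, and each comparison was fitted over all genes of the groups compared with edgeR 4.0.16 (R 4.3.3, quasi-likelihood test, filterByExpr, Benjamini-Hochberg adjusted p under 0.05, the threshold the authors used with DESeq2). DESeq2 1.42.0, its size factors, other filters, one fit over 18 samples, all 6 controls, a replicate block and leaving out each sample were alternatives. The fits were tested on simulated data. Groups came from the labels, which mark the controls as A and B; the assignment of knockouts to control A or B follows the sequencing run numbers. Same-numbered samples of *ΔSCC4* and control A deviated together (correlations of deviations from the group means 0.675, 0.115 and 0.615). In no other comparison did each sample match its own number best. All main fits, that of *ΔSCC4* included, nevertheless used the group alone. The replicate block was run as an alternative, and genes called with it are named for *ΔSCC4* against control A only. The labels give no pairing, and 3 samples per group cannot settle it.

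The members and all lists were chosen with earlier results of these data known. Pathway genes were named by rule: per comparison, up to 3 highest and 3 lowest log2 fold changes past the threshold, average log2 CPM 1 or more; genes named otherwise are marked. The nearest genes passing the filter and the 3 genes most correlated with a member of at least 1 CPM and a 2-fold range were also named. Marker lists of 4 cell types were summed per sample; the haematopoietic list reached 0.553 CPM and the endothelial list 0.455.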

Additional observations from a re-analysis of the deposited data

Results flagged for a closer look

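Among the 6 controls, SDC2 of control A replicate 2, at 136 CPM, stood apart: its gap to the nearest control was 0.692 of the whole range of log2 CPM (above Dixon's critical value for 6 samples). The other controls lay between 115 and 121 CPM. Without this sample the log2 fold change of SDC2 was -0.39 in place of -0.45 in clone 3.3 and -0.93 in place of -0.99 in *ΔSCC4*. The rule pools control A and control B, and it is a flag on a sample, not a test between groups. The 7 members that passed the filter were examined in this way, and chance marks about 1 in 20 groups.

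For 5 of 81 tested pathway genes, the change against the controls was unequal in the 2 *ΔWAPL* clones by edgeR's test of that difference, beside 2.65% of all genes. TIAM1 had log2 fold changes of -2.55 in clone 3.3 and -6.36 in clone 1.14, a difference of 3.83 (SE 0.71, adjusted p = 0.00879), and clone 1.14 held only 4 TIAM1 reads in all. CNTN1 had -1.07 and -3.50, a difference of 2.44 (SE 0.30, adjusted p = 0.000261). CHST15 had -1.48 and -3.42, a difference of 1.95 (SE 0.44, adjusted p = 0.0301). SULF1 fell more in clone 3.3, with -4.25 and -1.72, a difference of -2.52 (edgeR adjusted p = 0.017). Clone 3.3 held only 7 SULF1 reads in all. GPC5, a glypican under the level set for naming genes, had 3.25 and 1.41, a difference of 1.86 (edgeR adjusted p = 0.0219). That call was lost with DESeq2 (adjusted p = 0.0843). Clone, control group and sequencing run cannot be told apart in these differences.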

How the results depend on the processing

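The number of pathway genes past the threshold fell from 15 to 9 in clone 3.3, from 14 to 8 in *ΔSCC4* and from 5 to 1 for the difference between clones when at least 10 reads were required in every sample, a filter that leaves fewer genes to test. One fit over all 18 samples gave 21 instead of 32 in clone 1.14, 25 instead of 14 in *ΔSCC4* and 7 instead of 1 between the controls. Between the controls, DESeq2 and the fit without a filter gave 2 each, and the replicate block gave 3. The replicate block gave 42 instead of 14 in *ΔSCC4*, where same-numbered samples deviated together, and 5754 instead of 1186 genes of all those tested. It changed no other count of pathway genes by over 1.5 times. Leaving out 1 replicate gave 12 to 17 in clone 3.3, 18 to 38 in clone 1.14, 6 to 19 in *ΔSCC4*, 6 to 17 in the double knockout against control A, 13 to 23 against clone 3.3, 23 to 39 against *ΔSCC4*, 0 to 2 between the controls and 2 to 5 for the difference between clones. Over all genes, one fit over 18 samples called 1753 instead of 1008 in clone 3.3, 2556 instead of 1186 in *ΔSCC4* and 408 instead of 80 between the controls, all 6 controls called 2718 in *ΔSCC4*, DESeq2, no filter and the block called 142, 127 and 162 between the controls, and the filter of 10 reads called 211 instead of 339 for the difference between clones. Leaving out 1 replicate, the calls over all genes ranged from 686 to 1180 in clone 3.3, 1415 to 4820 in clone 1.14, 662 to 2317 in *ΔSCC4*, 586 to 1552 in the double knockout against control A, 861 to 1805 against clone 3.3, 2080 to 5020 against *ΔSCC4*, 0 to 107 between the controls and 218 to 372 for the difference between clones. The cause was not tested. With all 6 controls the fitted log2 fold change of PTN was 7.12 in clone 3.3, 3.69 in clone 1.14 and 5.25 in the double knockout, and the filter of 10 reads left no PTN value against controls or *ΔSCC4*. The few PTN reads of the controls give every ratio of PTN to controls a wide interval. The ratio of the double knockout to clone 3.3 uses no control reads and had an interval of 0.22 to 0.324.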
